A study of Ovis aries with 23 samples.

Results

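The pars tuberalis (PT) is the stalk portion of the pituitary that reads day length through the melatonin signal. Its response to a change in photoperiod was examined here for 23 genes that the study placed under epigenetics (11 genes) or protein modification (12 genes). They were taken from the study's functional category table of 1324 genes by their mark in either column. Left out were 25 genes also marked for ER, Golgi, and transport, nervous system, development, metabolism, organization, or circadian rhythm. Marks for other categories were allowed, with 9 of the 23 genes also under cell communication and ACSM1 under homeostasis. The count files hold 25197 genes in all, whether or not reads were counted for them. The study entered a gene in that table because it was differentially expressed (DE) in its experiments, so the choice already rests on expression. A total of 13 of the 23 genes were listed for SPs against an LP day of these same samples, 7 for LP day 7 and 8 for LP day 28 with 0 for LP day 1. Of these 13, JADE3 and ACSM1 were also listed from a separate experiment. The remaining 10 genes were not listed for these samples and were taken to come from that separate experiment. Its list was read only in part, and JADE2, ASB2, PPM1H, and UBE2Q2 were among the genes not seen in it. Genes listed from these samples could also stand in the part not read. For the 11 genes chosen through these samples, differences between SPs and LPs are therefore given as a description without a test. For the 12 genes taken as members through the separate experiment, the tests are given. JADE3 and ACSM1 are among these 12 and were also listed from these samples, so nothing is read from a pass of theirs.

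All samples are RNA from the PT of neutered male Scottish blackface sheep. Animals held on a short photoperiod (SP) gave 5 samples, and animals on a long photoperiod (LP) gave 6 samples each at day 1, day 7, and day 28. The controls share castration with the LP groups, so feedback from the testes is missing from every group. The labels do not say whether a sample is a single animal, and p-values measure the spread between these samples. Light cycles beyond SP and LP, housing, and the hour of sampling are not in the labels.

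Proteins of the chromatin group write, read, or remove small chemical marks on histones, or bring such enzymes to genes, and thereby set how readily a gene can be transcribed. Protein modification by ubiquitin, phosphate, or acyl groups changes how long a protein lasts and what it binds. The category names are broad. ACAD9, ACSS3, ACSM1, ALDH1A1, and SDR42E1 stand under protein modification, whereas the proteins are best known as metabolic enzymes of acyl-CoA, retinaldehyde, or related small molecules.

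Library totals ran from 307952 to 4413929 counts, with a median of 3332320. LP day 1 sample 4 was the shallowest, and 3 counts, taken as the lowest detectable level, equal 9.74 CPM (counts scaled to library size, here before TMM normalization) there against 0.900 CPM in the median sample, a limit that covers counting error only, as these reads carry no molecular identifiers. LP day 1 samples 3 and 4 differed by little more than counting noise, with a chi-square of 1.15 per gene, where the median pair of a group had 13.2. Pairs that include the shallow sample 4 ran low (1.81 with sample 6 and 3.59 with sample 1), and the lowest pair without it had 4.81. Samples 3 and 4 were kept as 2 samples. The 6 PT thyrotroph markers were found, and CGA, the glycoprotein hormone alpha subunit of these cells, lay between 3886 and 11559 CPM. The 6 hormone and lineage markers of the neighboring pars distalis (PRL, GH1, POU1F1, POMC, LHB, and FSHB) were above 0 in each sample. Their summed level was 34994 to 140940 CPM on SPs, 46564 to 271105 on day 1 of LPs, 46515 to 176716 on day 7 of LPs, and 74590 to 272700 on day 28 of LPs. PRL made up most of that sum, with group means of 72142, 79654, 68124, and 153866 CPM on SPs and LP days 1, 7, and 28. GH1 came next, with group means of 19488, 19288, 24667, and 18917 CPM. The other markers did not all follow PRL from SPs to day 28 of LPs. LHB had means of 4680 and 3569 CPM there, FSHB 583 and 346, POMC 4065 and 3841, and POU1F1 121 and 172. The PT label and a large pars distalis signal thus stood side by side in these libraries. In whole tissue, fewer cells of a type and less RNA per cell cannot be told apart.

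EdgeR's quasi-likelihood test with a false discovery rate (FDR, adjusted by Benjamini-Hochberg) under 0.05 was run over all genes with more than 1 CPM in enough samples. It reached 21 of the 23 genes in each comparison of SPs with an LP day. GMNC and PADI4 had too few counts. At LP day 1, 0 of the 21 genes were called, where 0% of all 14920 tested genes were called and 1 of the 21, against 3.33% of all genes, had an unadjusted p under 0.05. At LP day 7, 0 of the 21 were called, against 0.266% of 15030 genes, and 8 had an unadjusted p under 0.05, against 14.4%. At LP day 28, 0 of the 21 were called, against 0.67% of 14929 genes, and again 8 had an unadjusted p under 0.05, against 13.8%. DESeq2 called 0, 4, and 5 of the genes at the 3 days, where it called 2, 336, and 346 of all genes. Nothing is read from these shares for genes chosen on the same contrast. Of the 11 tested genes taken as members through the separate experiment, 0, 2, and 2 had an unadjusted p under 0.05 at LP days 1, 7, and 28. Their median log2 fold changes were -0.07, -0.01, and 0.06. Medians over all genes tested were 0.00, -0.01, and -0.01.

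**Figure D1:**
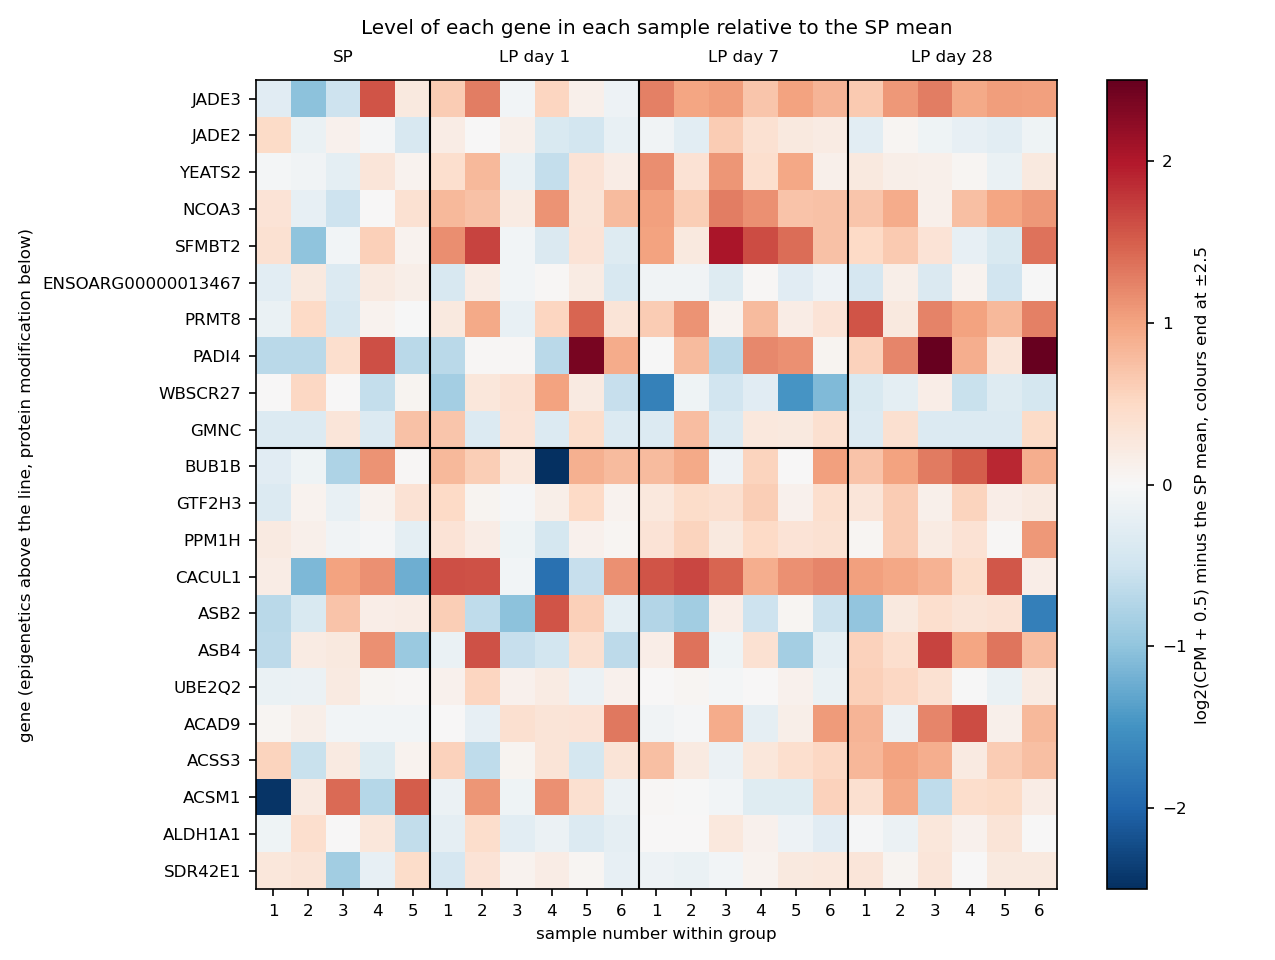
Heat map of 22 of the 23 genes (rows) in the 23 samples (columns, by group and sample number), as log2(CPM + 0.5) minus the SP mean. JADE3 is red in all LP day 7 and LP day 28 samples and also in SP sample 4, and NCOA3 is red in all LP day 7 samples. GMNC and PADI4 rest on few counts.

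Nuclear receptor coactivators help hormone-bound receptors to switch genes on. NCOA3 (ENSOARG00000009818) encodes one that brings acetyltransferase activity to these receptors. It had 24.1, 16.3, 12.98, 19.1, and 24.8 CPM in SP samples 1 to 5. The lowest, median, and highest values were 21.9, 32.3, and 41.5 CPM on day 1 of LPs, then 29.1, 35.5, and 46.3 CPM on day 7 of LPs, and 20.8, 34.5, and 40.9 CPM on day 28 of LPs. All 6 LP day 7 samples lay above all 5 SP samples, as did 4 of 6 on day 1 of LPs and 5 of 6 on day 28 of LPs. Among those 4 is the shallow LP day 1 sample 4, whose 41.5 CPM rest on 14 counts. LP day 1 sample 3, which it closely resembled, had 21.9 CPM. The log2 fold changes were 0.60 ± 0.20 (SE), 0.91 ± 0.18, and 0.75 ± 0.20 at LP days 1, 7, and 28. The study listed NCOA3 for LP days 7 and 28 and not for LP day 1.

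JADE3 and JADE2 encode related PHD-finger proteins that guide a histone acetyltransferase complex to chromatin. JADE3 (ENSOARG00000013886) had 3.18, 1.69, 2.60, 12.6, and 4.80 CPM on SPs, where SP sample 4 was the highest of all 23 samples. The LP samples ran from 3.55 to 10.3 CPM at day 1 (median 5.15), from 6.71 to 10.2 CPM at day 7 (median 8.36), and from 6.47 to 10.2 CPM at day 28 (median 8.65). Every sample of LP days 7 and 28 was above 4 of the 5 SP samples and below the remaining SP sample. JADE3 differed from SPs by 0.75 (SE 0.38) on day 7 of LPs and 0.77 (SE 0.38) on day 28 of LPs on the log2 scale, and neither passed the test (edgeR FDR 0.389 and 0.386). Without SP sample 4, the LP day 28 difference was 1.43 and passed (edgeR FDR 0.0473). JADE3 was also listed for LP days 7 and 28 of these same samples, so nothing is read from that pass. JADE2 (ENSOARG00000014007) had 107, 68.7, 83.7, 76.2, and 58.4 CPM on SPs and medians of 72.6, 90.3, and 69.2 CPM at LP days 1, 7, and 28. It stood 0.18 (SE 0.17) above SPs on day 7 of LPs and -0.18 (SE 0.14) on day 28 of LPs on the log2 scale, neither past the threshold (edgeR FDR 0.683 and 0.587). Its LP day 28 samples lay close together, from 63.9 to 79.4 CPM.

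YEATS2, SFMBT2, and CACUL1 had their highest mean on day 7 of LPs. YEATS2 (ENSOARG00000020645), an acyl-lysine reader in a histone acetyltransferase complex, had 30.5, 29.8, 26.5, 39.2, and 33.6 CPM on SPs. Its LP day 7 samples had 71.3, 41.0, 68.3, 42.7, 62.6, and 34.6 CPM in order of sample number, and LP day 28 samples were back between 28.1 and 37.8 CPM. In LP day 7 the odd-numbered samples, at 62.6 CPM and above, stood clear of the even-numbered ones, at 42.7 CPM and below. The labels give odd and even numbers no meaning. Relative to SP samples of the same kind (3 odd and 2 even), the LP day 7 level was 1.15 higher on the log2 scale for odd numbers and 0.19 for even numbers. Over all samples the LP day 7 difference was 0.74 ± 0.19 (SE). From LP day 7 to LP day 28 it differed by -0.63 ± 0.16 (SE).

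SFMBT2 (ENSOARG00000013446) is a Polycomb-type protein with methyl-lysine binding domains. It had 5.30, 1.69, 3.75, 6.16, and 4.23 CPM on SPs, and 8.41, 4.75, 17.7, 13.2, 11.2, and 6.86 CPM on day 7 of LPs. Of the LP day 7 samples, 5 of 6 lay above all SP samples. The median was 4.42 CPM on day 1 of LPs and 5.45 CPM on day 28 of LPs, within the SP range. The difference from SPs was 0.69 ± 0.41, 1.28 ± 0.35, and 0.44 ± 0.36 (SE) on the log2 scale at the 3 LP days, and -0.84 ± 0.33 from LP day 7 to LP day 28. EZH2, the histone methyltransferase of the main Polycomb complex, is one of the 25 genes left out for another category and followed another course, with 17.2 ± 6.36 CPM on SPs (SD, n = 5), 20.9 ± 10.1 on day 1 of LPs, 49.0 ± 23.8 on day 7 of LPs, and 81.0 ± 36.7 on day 28 of LPs (SD, n = 6). Of those 25 genes, 24 were tested on day 28 of LPs and 4 were called, EZH2 among them, and the study's table had chosen genes on these samples too.

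CACUL1 (ENSOARG00000000294), a cullin-domain partner of a cell-cycle kinase, was near the limit of detection, with 1 to 11 counts in SP samples. Its CPM were 1.59, 0.339, 3.17, 3.56, and 0.282 on SPs and 2.95 to 5.34 on day 7 of LPs (median 4.14). The LP day 7 difference was 1.20 ± 0.47 (SE) on the log2 scale. Among the SP samples, 2 of 5 held a single count.

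**Figure D2:**
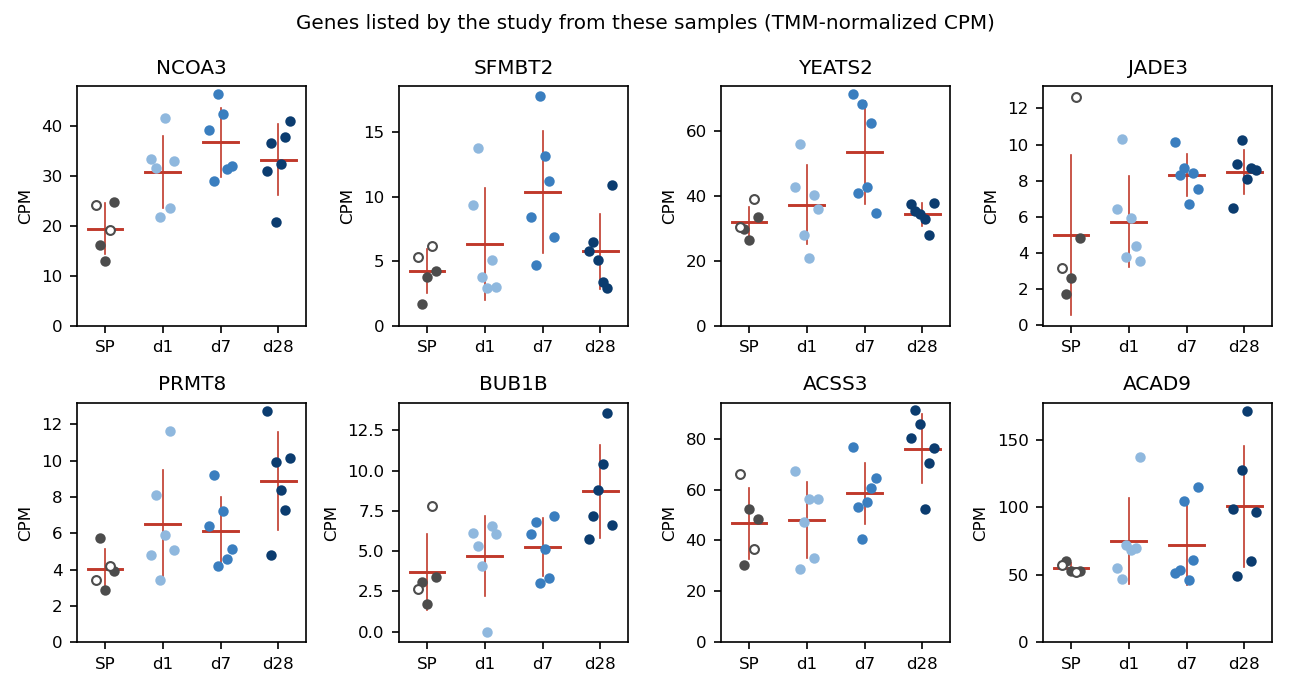
CPM (vertical axis, from 0 or just below) of 8 genes that the study listed from these samples, by group (SP and LP days 1, 7, and 28). Points are samples, open points are SP samples 1 and 4, red lines are means ± SD. YEATS2 and SFMBT2 are highest at day 7, PRMT8, BUB1B, and ACSS3 at day 28, and ACAD9 is tight on SPs and wide on LPs.

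PRMT8, BUB1B, ACSS3, ASB4, and ACAD9 had their highest mean on day 28 of LPs. PRMT8 (ENSOARG00000010553) is a membrane-bound arginine methyltransferase known mainly from brain. Its SP samples had 3.44, 5.76, 2.89, 4.21, and 3.95 CPM, and LP day 28 samples ran from 4.79 to 12.7 CPM with a median of 9.18. In 5 of 6 LP day 28 samples it was above all SP samples. The differences from SPs were 0.70 ± 0.34, 0.60 ± 0.28, and 1.15 ± 0.28 (SE) on the log2 scale.

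BUB1B (ENSOARG00000020126) is a kinase-like protein of the spindle checkpoint, made in dividing cells. It had 2.65, 3.05, 1.73, 7.78, and 3.39 CPM on SPs, where SP sample 4 stood out, and 5.78 to 13.6 CPM on day 28 of LPs. Its differences from SPs were 0.52 ± 0.40, 0.50 ± 0.37, and 1.22 ± 0.35 (SE) on the log2 scale. The dividing-cell list was paired for 4 of 12 genes (MKI67, TOP2A, CCNB2, and TPX2), and their summed level was 23.7 to 47.3 CPM on SPs and 37.6 to 55.2 CPM on day 28 of LPs. SP sample 4 was the highest SP sample of that sum as well. Over the 23 samples, BUB1B and the sum had r = 0.51 (permutation p = 0.0170, adjusted 0.0816 over 24 relations) and rho = 0.61 (permutation p = 0.00295, adjusted 0.0173). With group means removed r was 0.33 (permutation p = 0.312), and without the 2 samples farthest from the median of the sum the pooled r was 0.73. The part of dividing cells in the BUB1B levels was not tested.

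ACSS3 (ENSOARG00000015186), a mitochondrial synthetase that activates short-chain fatty acids, had group means of 46.8 ± 13.98 CPM on SPs (SD, n = 5), 48.2 ± 14.9 on day 1 of LPs, 58.4 ± 12.1 on day 7 of LPs, and 76.0 ± 13.6 on day 28 of LPs (SD, n = 6). Its SP samples had 66.2, 30.5, 52.5, 36.6, and 48.2 CPM. Of its LP day 28 samples, 5 of 6 lay above all SP samples, and the difference was 0.69 ± 0.18 (SE) on the log2 scale. From LP day 7 to LP day 28 it was 0.39 ± 0.14.

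ACAD9 (ENSOARG00000002649), a mitochondrial flavoprotein needed to assemble respiratory complex I, differed in its spread. SP samples had 56.9, 60.3, 52.5, 51.9, and 52.5 CPM, a range narrower than in any LP group. LP day 7 samples had 51.3, 53.4, 105, 46.5, 60.8, and 115 CPM and LP day 28 samples 98.4, 49.3, 128, 171, 60.0, and 96.7 CPM. Levels of 96.7 CPM or more were thus found in LP day 7 samples 3 and 6 and LP day 28 samples 1, 3, 4, and 6, and also in LP day 1 sample 6 (137 CPM), while the other LP samples stayed at 72.1 CPM or less. The difference from SPs was 0.45 ± 0.22, 0.38 ± 0.22, and 0.88 ± 0.23 (SE) on the log2 scale at LP days 1, 7, and 28.

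WBSCR27 and ACSM1 were listed for a lower level at LP day 7. WBSCR27 (ENSOARG00000011998), a predicted methyltransferase, had 8.74, 12.5, 8.66, 5.51, and 9.03 CPM on SPs and 2.32, 8.01, 6.02, 6.98, 2.80, and 3.77 CPM on day 7 of LPs. The LP day 7 difference was -0.83 ± 0.32 (SE) on the log2 scale, and on day 1 of LPs it was 0.02 ± 0.31. ACSM1 (ENSOARG00000012921), a mitochondrial synthetase for medium-chain fatty acids, had 0.530, 6.09, 14.4, 2.92, and 15.5 CPM on SPs. The LP day 7 samples, at 4.03 to 7.89 CPM, lay inside that range. Its log2 difference on day 7 of LPs was -0.63 (SE 0.51) and did not pass the test (edgeR FDR 0.620). Against SP samples of the same kind (3 odd and 2 even), the LP day 7 level of ACSM1 was -1.03 on the log2 scale in odd-numbered samples and 0.30 in even-numbered ones. ACSM4, a related synthetase whose transcripts could share reads with it, was at 0 in 6 of 6 samples at LP days 1 and 28.

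PADI4 (ENSOARG00000011018), which turns histone arginine into citrulline, held 0, 0, 2, 6, and 0 counts on SPs and 3, 4, 16, 3, 1, and 11 counts on day 28 of LPs. Samples overlapped, and differences were not detectable at this depth between the samples with 3 counts or fewer. Its relative PADI3 had 1.48 ± 2.00 CPM on SPs (SD, n = 5) and 7.72 ± 4.77 CPM on day 28 of LPs (SD, n = 6), and any reads shared between these related genes would make both uncertain. GMNC (ENSOARG00000020459), a geminin relative that starts the multiciliated cell program, had 0 to 2 counts in every sample. The marker list of multiciliated cells was paired for 1 of 7 genes, TEKT1, at 10.2 to 37.2 CPM.

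None of the protein modification genes taken to come from the separate experiment passed the quasi-likelihood test against SPs at an LP day. PPM1H (ENSOARG00000004219), a phosphatase of the PP2C family, had 99.3, 92.8, 80.5, 83.9, and 72.2 CPM on SPs. Its LP day 7 samples had 108, 126, 102, 121, 108, and 112 CPM, and all 6 lay above all 5 SP samples. PPM1H and NCOA3 were the 2 of 23 genes with this separation on day 7 of LPs, which 1.26% of the genes tested showed in the same direction and 0.778% in the other. NCOA3 was listed for this contrast of these samples, so nothing is read from its separation. GMNC and PADI4, part of the 23, were not among the genes tested. All 23 genes had overlapping groups in the other comparisons, where the share of all genes without overlap (higher, then lower, in the later group) was 0.0871% and 0.134% for LP day 1 against SPs, 1.11% and 0.871% for LP day 28 against SPs, 0.134% and 0.134% between LP days 1 and 7, and 0.141% and 0.222% between LP days 7 and 28. The PPM1H difference was 0.39 (SE 0.10) on the log2 scale and did not pass the threshold (edgeR FDR 0.103). DESeq2 called it (FDR 0.0272). Its LP day 28 samples ran from 86.7 to 182 CPM and differed by 0.43 (SE 0.17, edgeR FDR 0.256).

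GTF2H3 (ENSOARG00000003043), a subunit of the general transcription and DNA repair factor TFIIH, had 18.8, 25.4, 21.1, 25.6, and 30.8 CPM on SPs and 25.7 to 36.8 CPM on day 7 of LPs (median 32.1). It differed by 0.37 (SE 0.14) on day 7 of LPs (edgeR FDR 0.254) and 0.33 (SE 0.15) on day 28 of LPs (edgeR FDR 0.355). UBE2Q2 (ENSOARG00000001259), a ubiquitin-conjugating enzyme, had 54.8 to 72.7 CPM on SPs, 54.9 to 66.4 on day 7 of LPs, and 55.2 to 93.1 on day 28 of LPs. It differed by -0.01 (SE 0.10) on day 7 of LPs and 0.28 (SE 0.14) on day 28 of LPs (edgeR FDR 0.970 and 0.386).

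ASB2 (ENSOARG00000014168), which selects substrates for a cullin ubiquitin ligase, had 2.12 to 6.35 CPM on SPs and 1.78 to 4.21 CPM on day 7 of LPs, with a difference of -0.49 (SE 0.35, edgeR FDR 0.554). SDR42E1 (ENSOARG00000009459), a short-chain dehydrogenase, had 9.81 to 25.4 CPM on SPs and 18.5 to 22.7 CPM on day 28 of LPs, with a difference of 0.13 (SE 0.20, edgeR FDR 0.825). ENSOARG00000013467, which has no symbol, had 57.4 to 86.0 CPM on SPs and 58.1 to 73.8 CPM on day 7 of LPs, with a difference of -0.17 (SE 0.12, edgeR FDR 0.568). SP and LP samples of these 3 genes overlapped.

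**Figure D3:**
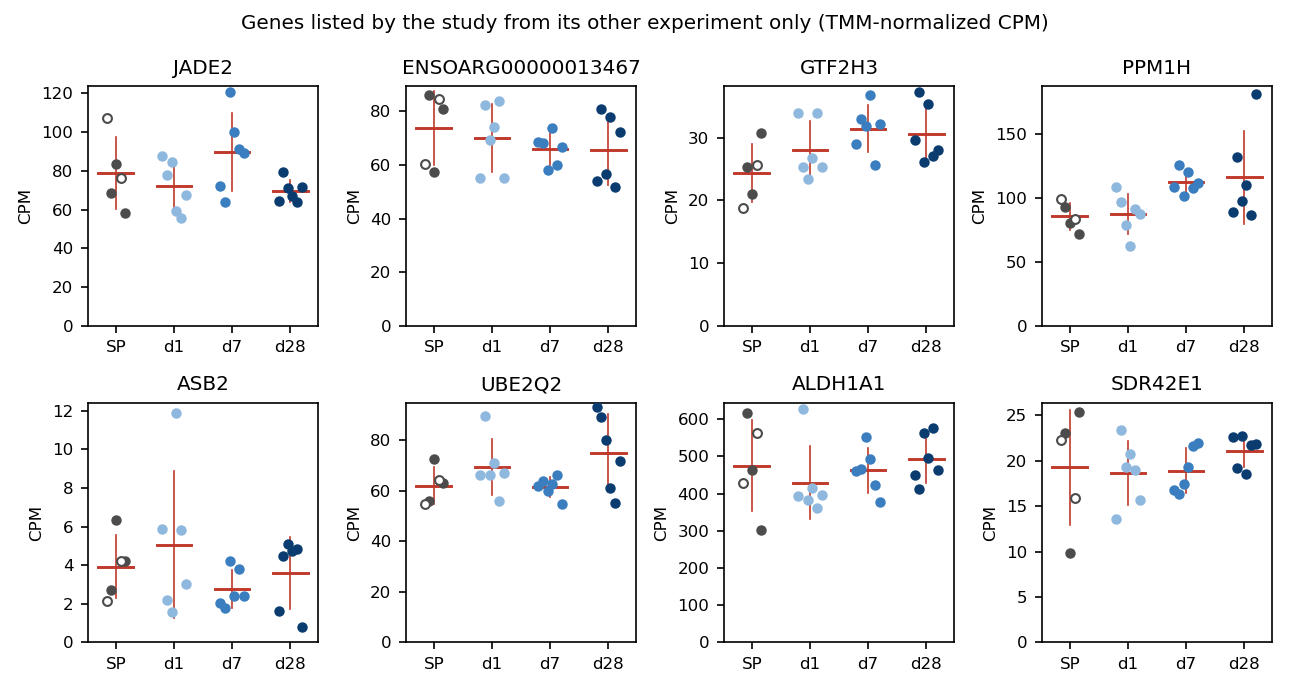
CPM (vertical axis, from 0) of 8 genes taken to come from the separate experiment, by group (SP and LP days 1, 7, and 28). Points are samples, open points are SP samples 1 and 4, red lines are means ± SD. PPM1H at day 7, 102 to 126 CPM, lies above all SP samples, and the other genes overlap.

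**Figure D4:**
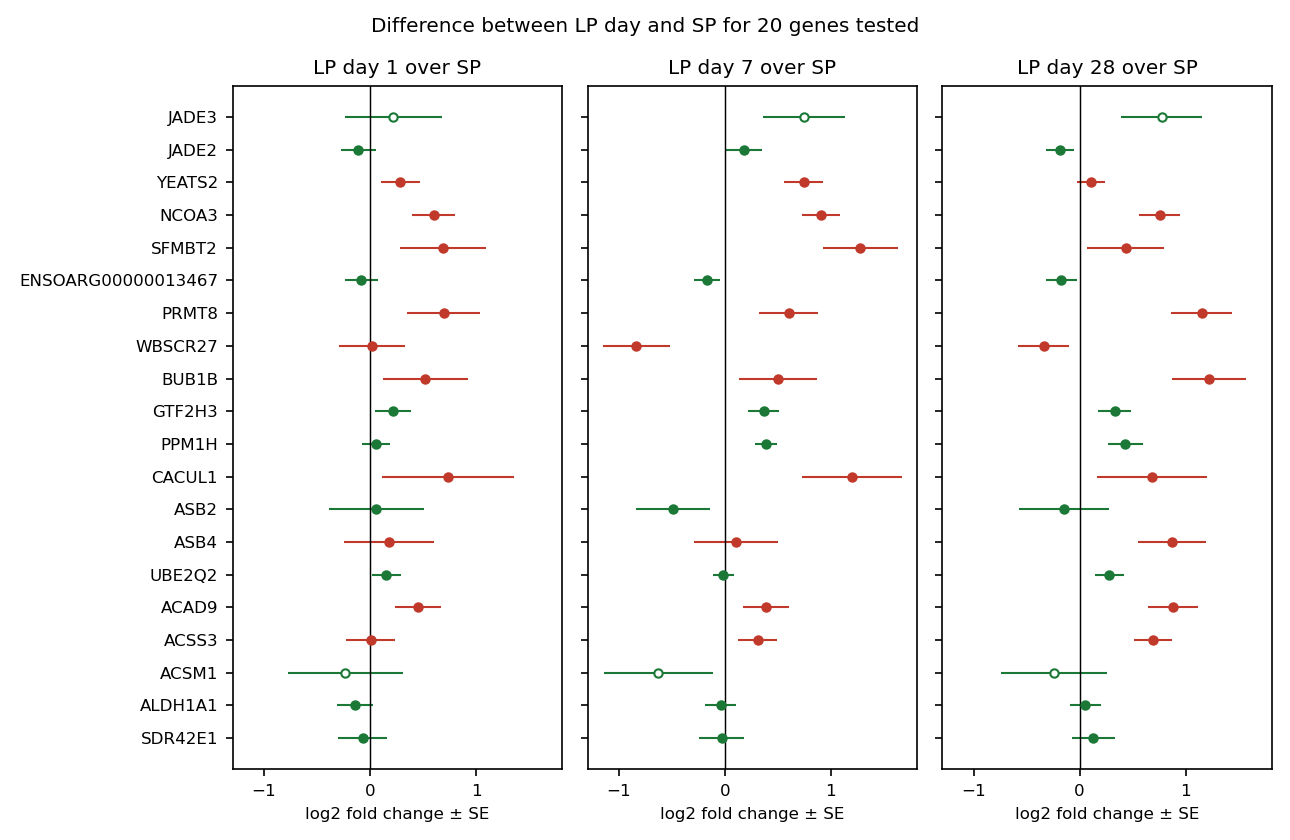
Log2 fold change over SP with its SE (horizontal axis) at LP days 1, 7, and 28 for 20 of the 21 genes tested. Red points are genes listed from these samples, and green points genes taken to come from the separate experiment. Open green points are JADE3 and ACSM1, listed from both. Red points spread from -0.83 to 1.28, and filled green points stay between -0.49 and 0.43.

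ASB4 and ALDH1A1 moved with the summed pars distalis markers, a sum made up mostly of PRL. ASB4 (ENSOARG00000003383), a relative of ASB2, had 7.68, 14.2, 14.7, 27.9, and 6.21 CPM on SPs, and medians of 9.93, 12.7, and 23.2 CPM at LP days 1, 7, and 28. Sample 2 stood out on day 1 of LPs with 38.4 CPM and on day 7 of LPs with 32.3 CPM. The LP day 28 difference from SPs was 0.87 ± 0.32 (SE) on the log2 scale. On log2(CPM + 0.5) values, ASB4 and the summed pars distalis markers had r = 0.92 and rho = 0.93 over the 23 samples (permutation p = 1e-05 each, the smallest that the permutations can give, adjusted 2.4e-04 over 24 relations). With group means removed r was 0.90 (permutation p = 1e-05), and without the 2 samples farthest from the median it was 0.90. Within LP days 1, 7, and 28, over 6 samples each, r was 0.98, 0.92, and 0.79. With 5 samples, the SP group was given no value of its own. With GH1 as a covariate, the LP day 28 difference was 0.85. GH1 itself differed by -0.05 (SE 0.34) on the log2 scale between these groups, and PRL by 1.09 (SE 0.37). A GH1 covariate could therefore move the group difference little, and nothing is read from that value. Taken apart, the LP day 28 difference of ASB4 was 1.62 in odd-numbered samples and -0.00 in even-numbered ones, each against SP samples of the same kind. These are 3 odd and 2 even SP samples, the even ones including SP sample 4 at 27.9 CPM.

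ALDH1A1 (ENSOARG00000012705) makes retinoic acid from retinaldehyde and had 429, 616, 463, 561, and 301 CPM on SPs. Its medians at LP days 1, 7, and 28 were 394, 463, and 480 CPM, and the difference from SPs was -0.14 (SE 0.17), -0.04 (SE 0.15), and 0.06 (SE 0.15) on the log2 scale (edgeR FDR 1.00, 0.936, and 0.902). Its level went with the pars distalis sum at r = 0.72 and rho = 0.69 (permutation p = 0.000140 and 0.000510, adjusted 0.00168 and 0.00612), with r = 0.72 after group means were removed and 0.65 without the 2 farthest samples. ALDH1A1 had also been set down as a marker of folliculostellate cells, the supporting glia-like cells of the pituitary. It ran against the sum of the other 3 markers of these cells (S100B, VIM, and FXYD1, mostly VIM), with r = -0.64 and rho = -0.60 (permutation p = 0.000980 and 0.00361, adjusted 0.00784 and 0.0173), and r = -0.52 without the 2 farthest samples. Within LP days 1, 7, and 28 this r was -0.97, -0.94, and -0.55.

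Of the other 20 genes set against the pars distalis sum, PRMT8 had r = 0.62 and rho = 0.64 (permutation p = 0.00171 and 0.00128, adjusted 0.0103 and 0.0102), r = 0.57 with group means removed (adjusted permutation p = 0.0605), and r = 0.59 without the 2 farthest samples. BUB1B had r = 0.46 and rho = 0.54 with the same sum (permutation p = 0.0226 and 0.00943, adjusted 0.0904 and 0.0377), with r = 0.31 after group means were removed and 0.45 without the 2 farthest samples. ACSS3 showed no pooled relation, with r = -0.14 and rho = -0.07 (permutation p = 0.532 and 0.737), whereas r was -0.62 with group means removed (adjusted permutation p = 0.0446) and -0.87, -0.34, and -0.55 within LP days 1, 7, and 28. For the remaining genes, both adjusted permutation p values were over 0.05. How much of the ASB4, ALDH1A1, PRMT8, and BUB1B levels came from pars distalis tissue was not tested. No correlation with a single marker was computed, so PRL and the other markers of the sum cannot be told apart here.

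**Figure D5:**
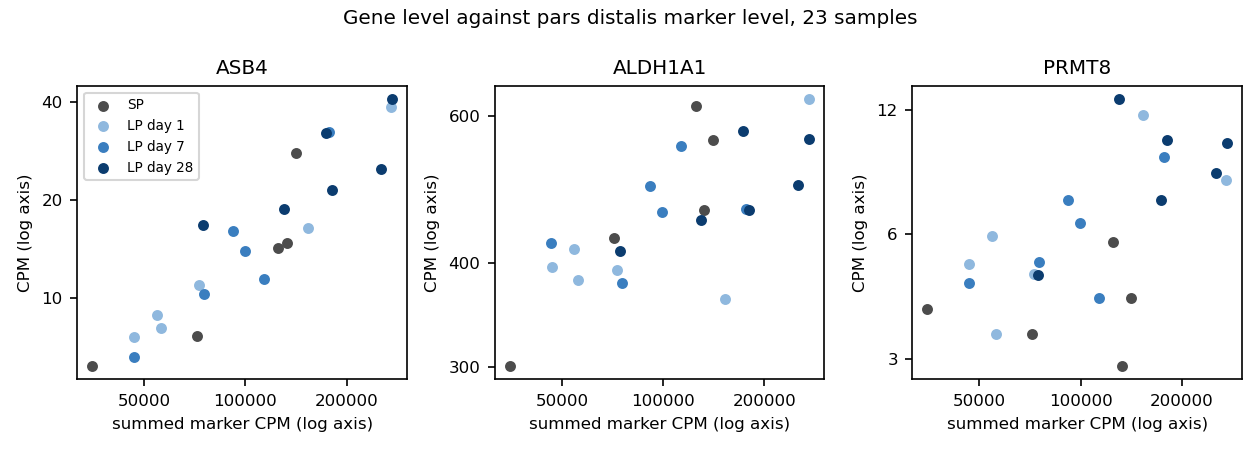
CPM of ASB4, ALDH1A1, and PRMT8 (vertical, log axis) against the summed CPM of 6 pars distalis markers (horizontal, log axis) in the 23 samples, colored by group. The sum is mostly PRL. ASB4 climbs along the marker sum (r = 0.92), ALDH1A1 (r = 0.72) and PRMT8 (r = 0.62) with more scatter.

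Differences between LP days use no SP sample, although the LP samples also entered the study's lists. Between LP days 1 and 7, 0 of 21 genes were called, against 0.0201% of 14897 genes, and 3 had an unadjusted p under 0.05, against 5.56%. Between LP days 7 and 28, 0 of 21 were called, against 0.00672% of 14890 genes, and 8 had an unadjusted p under 0.05, against 7.13%. Of the genes made members by the separate experiment, JADE2 differed by -0.36 (SE 0.13, edgeR FDR 0.564), and UBE2Q2 by 0.30 (SE 0.12, edgeR FDR 0.646) between LP days 7 and 28. PPM1H differed by 0.32 (SE 0.11, edgeR FDR 0.882) between LP days 1 and 7. For the listed genes the values between LP days 7 and 28 were 0.55 ± 0.26 (SE) for PRMT8, 0.72 ± 0.27 for BUB1B, and 0.77 ± 0.31 for ASB4. All were listed for LP day 28 of these same samples, so nothing is read from these values. A test over the 4 groups reached 22 genes, PADI4 included, and called 0, against 0.422% of 15653 genes. DESeq2 called 2 of the members and 222 of all genes.

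An edgeR exact test that shares 1 dispersion among genes was also run without SP samples 1 and 4. Of the SP sample sets tried in that test, this set gave LP day 28 log2 fold changes closest to the study's own. Other tests were not compared in this way. The exact test without SP samples 1 and 4 called 0, 7, and 9 of the genes at LP days 1, 7, and 28. Over all genes it called 40, 277, and 440. The 7 and 9 were the genes that the study listed for those days, with ACSM1 in addition at LP day 28. Nothing is read from these counts. The genes nearest inside the study's list were WBSCR27 and YEATS2 on day 7 of LPs (FDR 0.0344 and 0.0335 in that exact test), and the nearest outside it were ACSM1 on day 28 of LPs (FDR 0.0485, log2 fold change -0.86) and PPM1H on day 28 of LPs (FDR 0.212, log2 fold change 0.50). For 11 of the 13 listed genes, the mean of SP samples 1 and 4 lay nearer to the listed LP level than the mean of SP samples 2, 3, and 5 did, which holds for 13 of 15 combinations of gene and LP day, PRMT8 and ACAD9 on day 28 of LPs being the exceptions. Genes listed for a gap from SP samples 2, 3, and 5 would on average have left-out SP samples nearer to the LP level, so this count is a description and supports nothing. In SP sample 4, JADE3 (12.6 CPM against means of 8.31 and 8.49 at LP days 7 and 28), ASB4 (27.9 against 25.7 on day 28 of LPs), and ACSM1 (2.92 against 5.18 on day 7 of LPs) were past the LP mean. The quasi-likelihood test without SP samples 1 and 4 called 0 of the genes at any LP day.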

How the data were processed

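Counts of reads per Ensembl sheep gene were deposited by the authors, as whole numbers without normalization, for 23 PT samples. The submitters' processing notes name Bowtie, HTSeq, and genome build Oar_v3.1, while the file headers look like the output of another counting program, and the program used was not settled. Strand settings are not given in the sources used here. Each file has the same 25197 genes, 1259 of them paired with a symbol through the study's tables. A related-gene list of 145 symbols could be paired for 3 (EZH2, PADI3, and ACSM4), so no count over it is given.

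Counts were tested in R 4.3.3 with edgeR 4.0.16 (TMM normalization, genes over 1 CPM in a number of samples no lower than the size of the smaller group, quasi-likelihood test, FDR under 0.05 by Benjamini-Hochberg over all genes tested). SEs are the absolute log2 fold change over the square root of F. CPM are TMM normalized over all samples. The test was checked on simulated data. Correlations used log2(CPM + 0.5) and 100000 permutations, two-sided, and 24 relations were computed. The members, lists, and tests were chosen with earlier results of these data known, and the list for the separate experiment was read in part, so a member absent from the list for these samples was taken to come from it.

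By the rule for named genes, the members are given with their levels and with the LP day of their smallest unadjusted p. The values of 1 of the 23 members, which is kept in all fits and counts over members, are not reported here. Alternatives were DESeq2 1.42.0, library size alone, no filter, a single fit, other SP sets and an exact test, covariates (odd or even sample number, GH1), the sample number as a replicate block, summing LP day 1 samples 3 and 4, FDR under 0.1, and each sample left out in turn. SP samples 1 and 4, and odd and even samples, were set apart after seeing the data. No sequences or positions are given, since none was used here.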

Additional observations from a re-analysis of the deposited data

Results flagged for a closer look

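Values far from the others of their group (Dixon's test at the 95% level) were found in 10 of 96 groups of samples, and chance gives about 1 in 20. None was in LP day 1 sample 4, the shallowest. In SP sample 4, JADE3 stood at 12.6 CPM and BUB1B at 7.78 CPM. At LP day 1, sample 2 stood apart for ALDH1A1 (628 CPM) and ASB4 (38.4 CPM), sample 5 for PADI4 (3.64 CPM), and sample 6 for ACAD9 (137 CPM). At LP day 7, sample 2 stood apart for ASB4 (32.3 CPM) and sample 6 for ACSM1 (7.89 CPM) and for its total of 2741520 counts, the lowest of that group. At LP day 28, sample 3 stood apart for WBSCR27 (9.67 CPM).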

How the results depend on the processing

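Counts of calls moved with the test far more than the fold changes did. In comparisons with SPs, members called were 0 as reported at LP days 1, 7, and 28. At LP day 7 they were 4 with DESeq2, 7 with the exact test over SP samples 2, 3, and 5, 2 with FDR under 0.1, 2 with odd or even number as a covariate, and 1 each with no filter, a single fit, or GH1 as a covariate. At LP day 28 they were 5, 9, 4, and 1 with DESeq2, the exact test, FDR under 0.1, and odd or even number. Over 4 groups they were 2 with DESeq2 and 1 with FDR under 0.1. Leaving out each sample in turn gave 0 to 2 members at LP days 7 and 28 and 0 to 1 over 4 groups. JADE3 at LP day 28 passed without SP sample 4, at 1.43. The other calls at LP days 7 and 28 with a sample left out fell on genes chosen through these samples. JADE3 was listed from these samples too, and nothing is read from any of these calls.

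All genes called at LP day 1 (0 as reported) were 2 with DESeq2 and 40 with the exact test, and 0 to 4 with a sample left out. At LP day 7 (40 as reported) they were 336 with DESeq2, 277 with the exact test, 6 with SP samples 2, 3, and 5 alone, 24 with library size alone, 334 with odd or even number, 71 with GH1, and 215 with FDR under 0.1, and 7 to 113 with a sample left out. At LP day 28 (100 as reported) they were 346, 440, 48, 154 with odd or even number, and 241 with FDR under 0.1, and 41 to 110 with a sample left out. Between LP days 1 and 7 (3 as reported) DESeq2 gave 12 and the summed samples 3 and 4 gave 1, with 1 to 6 when a sample was left out. Between LP days 7 and 28 (1 as reported) the values were 36 with DESeq2, 6 with library size alone, 8 with no filter, 4 with a single fit, 10 with odd or even number, 3 with GH1, and 8 with FDR under 0.1, and 1 to 5 with a sample left out. Over 4 groups (66 as reported) they were 222 with DESeq2 and 128 with FDR under 0.1, and 51 to 123 with a sample left out. The cause of these moves was not tested.

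The sample numbers did not pair the samples: of 33 same-numbered pairs, 5 had correlated deviations over 0.1 (median 0.01, range -0.16 to 0.23). With the sample number as a replicate block, members called at LP day 7 were 2, and all genes called were 178 at LP day 7, 41 at LP day 28, and 6 between LP days 7 and 28.

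Of the fold changes of 20 members by their named LP day, 378 values kept direction and side of the threshold, 42 passed it in addition, and 1 changed sign. SDR42E1 at LP day 28 (0.13 as reported) was -0.039 to 0.25 with a sample left out, negative without SP sample 3. Library size alone moved the median of all genes by -0.12 between LP days 7 and 28. Genes near 3 counts, GMNC, PADI4, and CACUL1, are limited by depth.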
